A study of Homo sapiens with 6 samples.

Results

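The 5′ end of ANKLE2 carried 2 peaks of tagged wild-type ZNF335 in Jurkat T cells and none of the bloto form. The members are the peaks that overlap chr12:133337500-133339000 on hg19, a window of 1501 bp at the start of the gene. They number 2 of the 634 peaks in the WT list, 0 of the 174 in the bloto list and 0 of the 1 in the control list, and thus 2 of 809 peaks in all. ANKLE2 and its window were picked with earlier results of these data known, so the values below are a description of one locus.

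All libraries came from Jurkat T-REx cells, a leukaemic human T cell line in which doxycycline can switch on an introduced gene. The WT group expressed ZNF335 with a 3xFLAG tag, the bloto group expressed the same tagged protein with the substitution R1092W, and the control group had no tagged protein. Chromatin was precipitated with the FLAG antibody M2, with 1 ChIP and 1 input library per group, and the 3 ChIP peak lists were the data used. The labels describe the transfected lines as single clones that took up the plasmid and were induced overnight, so each form is represented by 1 clone, and any ZNF335 from the cells' own gene carries no tag. With 1 library per group, no difference between WT and bloto has a replicate check. The bloto ChIP library was the deeper by a factor of 1.07, as recovered from the deposited values.

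ZNF335 (Zfp335 in mouse) is a DNA-binding protein of the C2H2 zinc finger class. ANKLE2, also called LEM4, is a protein of the endoplasmic reticulum and nuclear envelope. As mitosis ends it helps to remove phosphate from BANF1, a small protein that binds DNA and membrane proteins, by restraining the kinase VRK1 and engaging the phosphatase PP2A, and the nuclear envelope can then close around the chromosomes. Inherited defects in ANKLE2 and in ZNF335 are both known as causes of microcephaly, and ANKLE2 has been tied to ZNF335 in late thymocyte maturation.

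The promoter sequence is shown because both WT peaks lie at the 5′ end of the gene. The RefSeq promoter table gives the 250 bases before the ANKLE2 start site (gene ID 23141) at chr12:132761833-132762082 of GRCh38.p14, minus strand. It is printed along the gene, with the start site just after its last base and matches to the GC box in capitals.
ANKLE2 promoter: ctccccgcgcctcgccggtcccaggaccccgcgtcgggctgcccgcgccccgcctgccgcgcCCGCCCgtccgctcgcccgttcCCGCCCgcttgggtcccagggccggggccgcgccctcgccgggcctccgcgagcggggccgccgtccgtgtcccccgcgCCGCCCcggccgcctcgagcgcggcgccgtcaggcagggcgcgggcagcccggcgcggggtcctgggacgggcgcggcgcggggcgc
This stretch was 87.6% G or C, against a median of 58.0% over the 35116 promoters of the table (quartiles 46.4% and 68.0%). Only 23 promoters had a higher share. It held 51 CpG dinucleotides, against a median of 11, and 25 promoters held more. ANKLE2 thus has one of the most GC-rich promoters in the table.

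Common promoter motifs were searched by their letters on both strands of the same 250 bases. The GC box (GGGCGG, or CCGCCC on the other strand), the letters that Sp1-type factors bind, matched at 3 places that began 188, 166 and 87 bases before the start site. At least 1 match was present in 42.6% of all promoters, and at least 3 in 13.9%. The CCAAT box (CCAAT, in 32.0% of promoters), the TATA box (TATAAA, 10.7%), the ETS letters CCGGAAG (8.52%) and ACTACA (7.28%) had no match in the ANKLE2 stretch. Neither had the CRE letters TGACGTCA (1.65%), the YY1 letters AAGATGGC (1.36%) or the motif of NRF1 (1.03%). A match here is a run of letters and not a shown binding site. The promoter table is on GRCh38 and the peaks are on hg19, so which printed bases lie inside a peak was not determined.

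In WT cells the stronger peak lay at chr12:133338309-133338673. It was 365 bp wide, with its summit at 133338553. The authors' fold over local background was 11.9, with a −log10 p of 24.7 and a −log10 q of 19.7. The fold and p-value together correspond to 30 ChIP reads at the summit (exact Poisson 95% interval 20.2 to 42.8, counting error only) over a background of 1.45 reads. It ranked 95th of 634 WT peaks by fold, but 257th by summit reads and 231st by width. By fold it stood in the upper part of the list, and by reads near the middle, where the median was 26 reads.

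The weaker peak lay at chr12:133337719-133337931. It was 213 bp wide, with its summit at 133337789, a fold of 6.73, a −log10 p of 10.4 and a −log10 q of 5.93. Its summit held 16 reads (9.15 to 26.0) over a background of 1.38 reads. It ranked 312th by fold, close to the median WT fold of 6.71, and 589th by reads. This was a weak peak of the list by reads, since 588 of the 634 WT peaks had more. The read intervals of the stronger and the weaker peak overlap.

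Their summits were 764 bp apart, with 377 bases between the peak edges. Both lay inside the window, the outer edges 219 bp and 327 bp from its ends. After the background was subtracted, the stronger summit had 1.95 times the reads of the weaker. The WT list holds them as separate peaks. The map of the window draws these called peaks only, and the signal between them was not analysed.

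The local background was low at both ANKLE2 peaks. The value at the stronger peak, 1.45 reads, was 1.14 times the lowest background in the WT list, and 25 of 634 WT peaks had a lower one. At the weaker peak 20 had a lower one, and the median over all WT peaks was 2.73 reads. A fold divides by this background, so it ranks these peaks higher than their reads do. Input values for the window other than this background were not analysed here.

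The control list had no peak in the window either, but the depth of its library is unknown. The bloto list had no peak in the window, and none with the window widened by 10 kb on each side. Over the whole WT list 26.2% of peaks (166 of 634) were overlapped by a bloto peak by at least 1 bp, so a WT site without one was the more frequent case. That share was 16.6% with reciprocal overlap of at least 50%, 24.3% with summits at most 100 bp apart and 30.3% with a permitted gap of 1000 bp, and both ANKLE2 peaks lacked a bloto peak under each. Ranked by fold among the 468 WT peaks that lacked a bloto peak, the stronger ANKLE2 peak was 6th and the weaker 163rd. The low background raises these ranks. By summit reads the stronger peak was only 257th of all 634 WT peaks. Of the 378 WT peaks with no more reads than it, 8 had a bloto peak.

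A missing peak is a bound and not a value of 0. The weakest WT peak had a −log10 p of 5.47, so the lists end at unlike levels, which enters every share with a bloto peak. The weakest bloto peak of the list had a −log10 p of 6.76. If the background at the stronger ANKLE2 site was that of WT scaled to depth, 11 bloto reads at the summit would have reached this level, where the WT signal at equal depth corresponds to 32.1 reads. By this level alone, at most 10 reads went uncalled on that assumption. After background subtraction this is 0.28 of the WT signal (0.19 to 0.42 over the counting interval of the WT reads). The narrowest peak was 146 bp in either list, and width was not part of this bound. A bloto stretch narrower than that could have gone unlisted with more reads. A count of 10 has itself a 95% interval reaching 18.4 reads, or 0.55 of WT. At the weaker site the same bound was 0.54 of WT, and 1.08 with the counting interval of the 10 reads. For the weaker peak the depth therefore does not separate a loss of bloto signal from an unchanged one.

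At sites with both peaks the bloto signal was also below WT. Among the 62 shared WT peaks of like fold to the stronger ANKLE2 peak, the bloto signal had a median of 0.55 of WT (range 0.24 to 0.80), and at 61 of them it exceeded 0.28. Among the 21 shared peaks of like reads the median was 0.54 (0.34 to 0.95). These sites had to pass the bloto cutoff to be counted, so low ratios are missing from both ranges. The limit of 0.55 for the stronger ANKLE2 site, from the counting error of the 10 bloto reads alone, reaches these medians. Whether the bloto signal relative to WT was lower at ANKLE2 than at those sites was not tested.

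The comparison of ANKLE2 with WT peaks of like strength depended on how strength was measured. Of the 92 other WT peaks within 20% of the stronger peak's fold, 62 had a bloto peak, or 67.4% (exact Clopper-Pearson 95% interval 56.8% to 76.8%), and 30 did not. By fold, then, ANKLE2 belonged to the minority. But 83 of these 92 peaks had more summit reads than ANKLE2, with a median of 48 against its 30, and 89 of them had a higher background. Their median width, 564.5 bp, was above its 365 bp. Of the 9 with no more than 30 reads, 1 had a bloto peak.

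By reads, the stronger ANKLE2 peak was among the majority. Of the 196 other WT peaks within 20% of its summit reads, 21 had a bloto peak, or 10.7% (6.76% to 15.9%). Of the 8 WT peaks with exactly 30 reads, ANKLE2 included, 1 had one. Likeness by −log10 p gave 23 of 72, or 31.9% (21.4% to 44.0%). Likeness by fold and width together gave 7 of 19, or 36.8% (16.3% to 61.6%), and by fold and reads together 6 of 23, or 26.1% (10.2% to 48.4%). The last was added after the data were seen. The intervals by fold and by reads do not overlap, although each set is centred on the same peak.

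**Figure D1:**
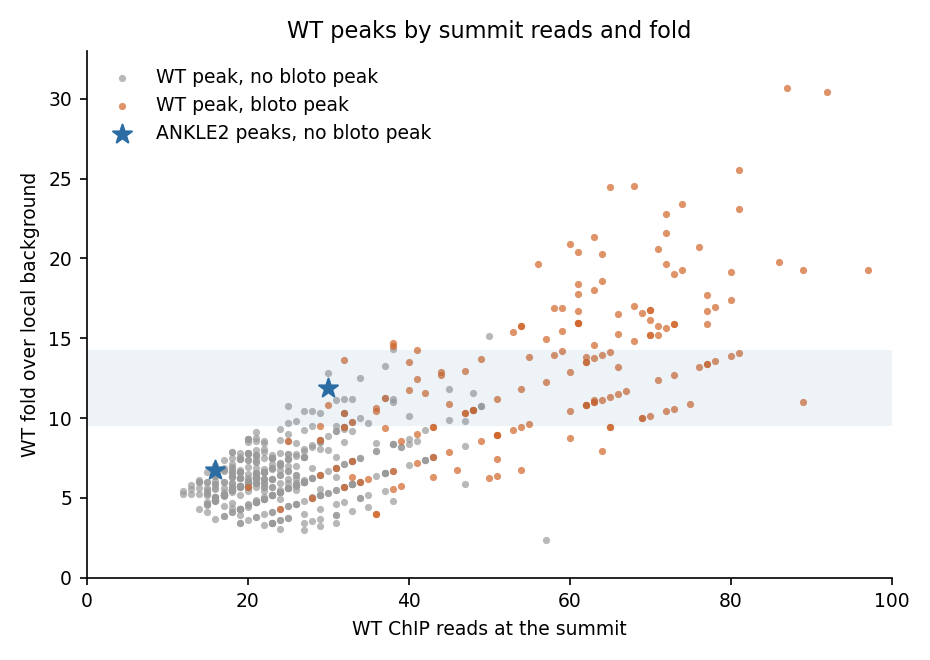
Authors' fold (vertical axis) against recovered ChIP reads at the summit (horizontal axis) for the 634 WT peaks, coloured by whether a bloto peak overlaps. The shaded band is within 20% of the stronger ANKLE2 fold. The ANKLE2 peaks (stars, 30 and 16 reads) lie at the upper left edge of the cloud, and the peaks with a bloto peak lie mostly to the right.

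In classes of WT reads, the stronger ANKLE2 peak fell among the 105 WT peaks with 30 to 39 reads, of which 21.9% had a bloto peak (14.4% to 31.0%). The weaker fell in the lowest class, the 132 peaks with 12 to 19 reads, in which none had one (0% to 2.76%). The share was 2.94% with 20 to 29 reads, 52.3% with 40 to 49 and 98.3% with 50 or more. The 30 reads of the stronger peak lie at the lower edge of their class. Their counting interval, 20.2 to 42.8, reaches into the classes on both sides.

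For the weaker peak, both measures pointed to a class in which bloto peaks were infrequent. Of the 282 other WT peaks within 20% of its fold, 21 had a bloto peak, or 7.45% (4.67% to 11.2%). Within 20% of its reads the count was 0 of 129, which allows a share of up to 2.82%.

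**Figure D2:**
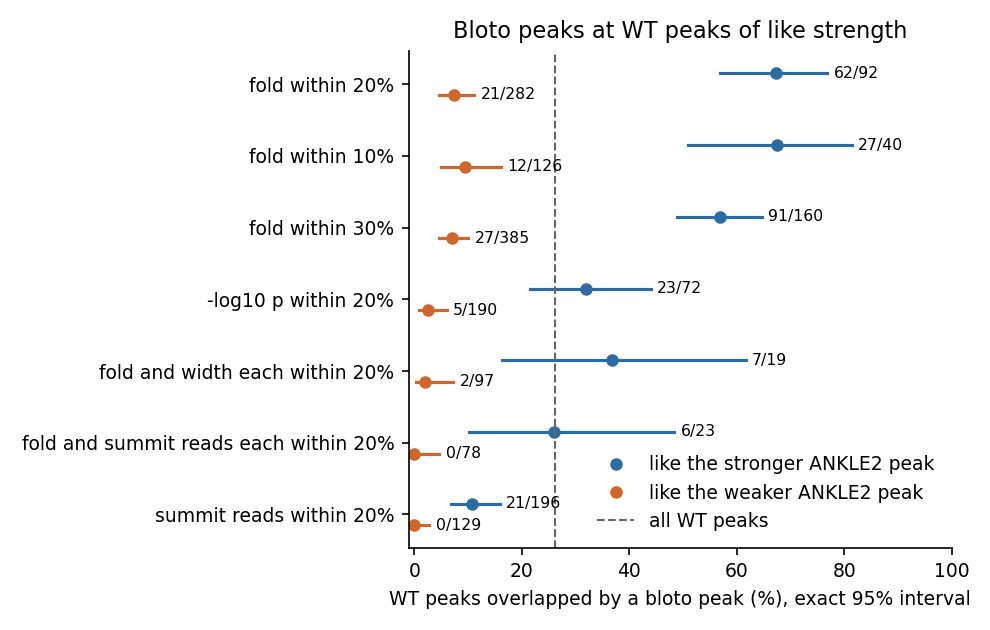
Percentage of WT peaks overlapped by a bloto peak (horizontal axis, with exact 95% intervals) among WT peaks like the stronger or the weaker ANKLE2 peak, for 7 definitions of likeness (vertical axis), with counts beside each point. The dashed line is the share over all WT peaks, 26.2%. For the stronger peak the share falls from 67.4% by fold to 10.7% by reads.

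Single WT peaks next to ANKLE2 in fold are given here with their reads. Of the 5 just above and the 5 just below the stronger peak, 7 had a bloto peak, and all 10 had more reads, from 34 to 73. Just above lay chr2:223520639-223521201, with a fold of 12.2, 57 WT reads and a bloto peak of 36 reads. Just below lay chr17:27169835-27170243, with a fold of 11.8 and 45 reads, and no bloto peak. The nearest of the 10 to ANKLE2 in reads, chr17:6541426-6541815, had 34 reads, a fold of 12.5 and a background of 1.64, and it too lacked a bloto peak. At the lowest WT reads among the 7 with a bloto peak stood chr10:75910469-75910847, with 40 WT and 22 bloto reads. Reads did not order these 10 peaks by bloto status, since chr17:27169835-27170243 and chr12:6560573-6561425, with 45 and 48 reads, lacked a bloto peak.

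Around the weaker peak, 2 of the 10 neighbours in fold had a bloto peak. They were chr14:93260431-93260776, with 54 WT reads and 22 bloto reads, and chr11:129872276-129873824, with 46 and 21. The other 8 had 17 to 25 WT reads, nearer to the 16 of ANKLE2. Among these 10, the 2 with a bloto peak had the most reads and the highest background.

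Paired peaks such as those at ANKLE2 were a minority of the WT list. Another WT summit lay within 1000 bp for 89 of 634 WT peaks (14.0%), which form 45 pairs of neighbouring summits. Their spacing ran from 260 to 827 bp with a median of 500 bp. The ANKLE2 spacing of 764 bp was the 41st of 45 from the closest, and 5 pairs had a wider gap between peak edges. Its ratio of stronger to weaker fold, 1.77, was near the median ratio of 1.91. ANKLE2 was therefore a widely spaced pair of ordinary proportions.

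In none of the 45 pairs did both WT peaks overlap a bloto peak. Over all WT peaks the share with a bloto peak was 26.2%, and it was 0% with 12 to 19 reads and 2.94% with 20 to 29. In most of the 45 pairs the member with fewer reads had 12 to 29 reads. In 26 pairs 1 member was overlapped, and in 24 of the 26 it was the one of higher fold. In all 26 it was the member with more summit reads. The exceptions by fold were on chromosome 19 (54 reads against 31) and chromosome 3 (36 against 23). The remaining 19 pairs, ANKLE2 among them, had no bloto peak. In these 19 the ANKLE2 fold was the second highest, after the pair on chromosome 19 at chr19:38145522-38145823 and chr19:38145926-38146134, whose stronger member had a fold of 14.3 and 38 reads. The third was on chromosome 3, chr3:128369547-128369900 with chr3:128370085-128370230, at 11.2 and also 38 reads. This order is by fold. By reads ANKLE2 had 30 at its stronger member, and the most among the 19 pairs was 47. Of the 19 other pairs with a stronger fold at or above that of ANKLE2, 18 had a bloto peak. Those 18 had 53 to 87 reads at the stronger member, against 30 at ANKLE2. The peak chr2:26467284-26467931 belongs to more than 1 of them.

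Pairs with and without a bloto peak differed in reads. The member of higher fold had a median of 62.5 reads in pairs with a bloto peak and 26 in pairs without. Of the 13 pairs whose member of higher fold had no more than 30 reads, 12 had no bloto peak, ANKLE2 included. In the exception, on chromosome 3, the bloto peak was at the member of lower fold, which had 36 reads. Among the 5 pairs closest to ANKLE2 in spacing, those with a bloto peak were chr1:62901682-62901877 with chr1:62902245-62903052 (752 bp apart, 70 reads) and chr17:61817943-61818116 with chr17:61818640-61819082 (780 bp, 36 reads). The pairs without one were on chromosomes 8, 3 and 1, at 745, 813 and 814 bp, with 19, 27 and 40 reads. All these reads are at the member of higher fold, and in the chromosome 3 pair the other member had 37.

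**Figure D3:**
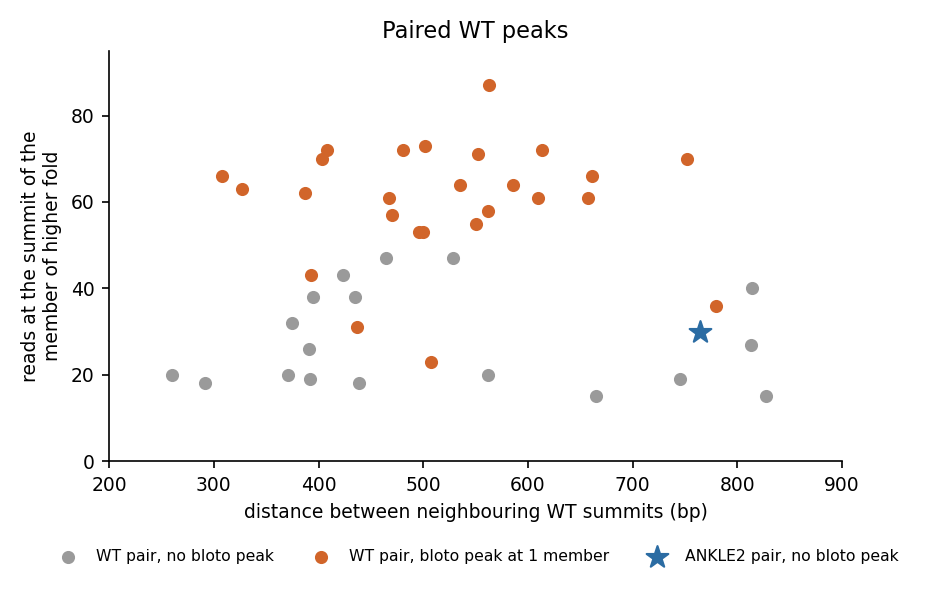
Reads at the summit of the member of higher fold (vertical axis) against the distance between summits in bp (horizontal axis) for the 45 pairs of neighbouring WT peaks within 1000 bp. Pairs with a bloto peak at 1 member lie mostly above those without, and the ANKLE2 pair (star) has 30 reads at 764 bp.

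The ANKLE2 peaks had the highest coordinates on chromosome 12 in any of the lists. The nearest other WT peak, chr12:125348266-125348464 (fold 8.32, 28 reads), ended 7.99 Mb before them, and the nearest bloto peak, chr12:118814051-118814414 (fold 13.8, 45 reads), 14.5 Mb before. On chromosome 12, 10 of 33 WT peaks had a bloto peak, against 166 of 634 (26.2%) over the whole WT list. This count does not set the chromosome apart. In RefSeq the neighbouring protein-coding genes of ANKLE2 are PGAM5, a mitochondrial phosphatase, and GOLGA3, a Golgi protein. Gene positions on hg19 were not used here, so no distance from a peak to a gene is given.

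A list of 27 genes held partners of ANKLE2 in closing the nuclear envelope and genes of the cGAS-STING pathway, which senses DNA. Their peaks were not analysed here for the same reason. The promoter table held 19 of them, from 36.8% G or C at LBR, an inner nuclear membrane receptor, to 74.8% at SUN2, which links the envelope to the cytoskeleton. BANF1, the substrate of the ANKLE2 pathway, had 57.2%, and the PP2A catalytic subunit gene PPP2CA 73.2%. None of the 19 reached the 87.6% of ANKLE2, a level that 31 of the 35116 promoters of the table reached. A GC box was present in 10 of the 19 and in 42.6% of all promoters. Neither count sets the list apart.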

How the data were processed

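Data were the authors' peak lists of the 3 ChIP samples. Reads went through CASAVA 1.8.2, BWA, SAMtools, cutadapt 1.4.1 and MACS2 on hg19, per the submitters' processing notes, listed there with no order. The cutoff, the other versions and the choice of input are not given in these sources. Each deposited peak has a fold, which is the summit ratio of ChIP to local background, a −log10 p, a −log10 q adjusted within its list and a score, 10 times the −log10 q without decimals, all by the authors, for 1 library per list. Within-list values describe and rank peaks only.

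Summit reads were recovered from fold, (pileup + 1)/(background + 1), and p, the Poisson upper tail. Whole reads matched p within 0.001 (−log10) in 634 of 634 WT peaks, at a scale of 0.856, and in 174 of 174 bloto peaks; the arithmetic was tested on simulated data. WT summits held 12 to 97 reads and bloto summits 11 to 68. The depth ratio assumes 1 genome size for both lists; control depth is unknown.

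Like strength meant within 20%, without the ANKLE2 peaks. Peaks named are the members, 5 WT peaks on each side in fold, the 5 pairs nearest in spacing and the nearest peaks on the chromosome; the pairs on chromosomes 19 and 3 with no bloto peak were named after their values were seen. Members, lists and rules were chosen with earlier results of these data known. Intervals are exact, treat peaks as independent and cover counting error only. Coordinates count from 1. Promoters came from RefSeq (GRCh38.p14). Python 3.11.15, numpy 2.4.6, pandas 2.3.3, scipy 1.17.1 and matplotlib 3.10.9 were used.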

Additional observations from a re-analysis of the deposited data

How the results depend on the processing

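No paired analysis was possible because there is only 1 library per group, which also leaves no replicate to omit. Of 29 values recomputed, 17 stayed within the interval of the reported value, or within 1.5 times for counts of peaks, and 12 moved further. The counts of 2 WT and 0 bloto peaks in the window were the same under every setting tried for them. For WT peaks like the stronger ANKLE2 peak, the share with a bloto peak moved to 31.9% by −log10 p, 10.7% by summit reads, 36.8% by fold and width, 26.1% by fold and summit reads, and 46.7% with reciprocal overlap of at least 50% (16.6% over all WT peaks). For the weaker peak it moved to 2.63% by −log10 p, 0% by summit reads, 2.06% by fold and width, 0% by fold and summit reads, 2.13% with reciprocal overlap and 12.1% with a gap of up to 1000 bp (30.3% over all WT peaks). Another WT summit lay within 500 bp for 46 WT peaks, which leaves out the ANKLE2 pair. For all of these the cause was not tested. The bound on the bloto signal at the stronger site rose from 0.28 to at most 0.37 of WT, with the fifth percentile of the bloto −log10 p as the cutoff. With the counting interval of the uncalled bloto reads it rose from 0.55 to at most 0.68, at the same cutoff. Peak width was not part of either bound. Fold and reads together was added after the data were seen. Promoter motifs and gene lists were not tested against peaks.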
